A study of Homo sapiens and Mus musculus with 12 samples.

Results

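The high mobility group (HMG) genes are a small set of genes for abundant, non-histone chromatin proteins. The 10 genes described here, HMGB1, HMGB2, HMGB3, HMGA1, HMGA2 and HMGN1 to HMGN5, were taken by name out of the 15590 genes of a table of RKO cells, and 9 of them, all but HMGN4, were found by the same names among the 17383 genes of a mouse colon table. The family was chosen by the RKO measurements themselves: HMGB2 had the lowest p-value of any gene in the comparison of RKO cells, and its relatives were added by name. Values of the HMG genes in that comparison are therefore given as a description, and only the mouse comparison tests them.

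RKO is a human colon cancer line. The cells carried an shRNA against ZNF280C, a zinc finger protein gene, behind a tetracycline-inducible promoter, and were grown for 72 h with 1 ug/ml doxycycline, which turns the shRNA on, or without it, with 3 libraries each. Both RKO groups carry the shRNA construct, and no doxycycline-treated cells without it were among the samples used here, so that an effect of doxycycline itself cannot be told apart from that of the shRNA. The mouse libraries were of whole colon tissue from C57BL/6J animals of 12 weeks, 3 Zfp280c knock-out and 3 wild-type. Nothing in the labels says that the libraries of a group came from separate cultures or animals, so p-values measure only the spread between these libraries, which may be technical. The RKO values had been batch-adjusted by the authors, which the p-values do not take into account, so RKO p-values may be too small.

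HMG proteins bind DNA or nucleosomes with little regard to sequence and change how tightly chromatin is packed. HMGB proteins bend DNA with a pair of HMG boxes, HMGA proteins hold the minor groove of AT-rich DNA with short AT-hooks and are raised in many tumours, and HMGN proteins sit on the nucleosome core and compete with linker histone H1. HMGB2 is known to be most abundant in dividing cells, and HMGB1 is also released from damaged cells as an alarm signal.

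Promoter sequences are shown for 4 genes that lie at different points of the RKO response: HMGN2, which had the largest decrease after HMGB2, HMGB1 and HMGB3, paralogs of HMGB2 with different changes, and HMGA1, the gene with a positive change. RefSeq windows of 300 bases, from 250 bases before to 50 bases after a gene start on GRCh38.p14, were found for 8 of the 10 genes; HMGB2 and HMGA2 were not matched. Each sequence runs 5′ to 3′ on the strand of its gene. Capitals mark the letters CCAAT or its complement ATTGG, a motif common in promoters, and TTTGAA, a form of the cell cycle homology region.
HMGN2, chr1:26472190-26472489, plus strand: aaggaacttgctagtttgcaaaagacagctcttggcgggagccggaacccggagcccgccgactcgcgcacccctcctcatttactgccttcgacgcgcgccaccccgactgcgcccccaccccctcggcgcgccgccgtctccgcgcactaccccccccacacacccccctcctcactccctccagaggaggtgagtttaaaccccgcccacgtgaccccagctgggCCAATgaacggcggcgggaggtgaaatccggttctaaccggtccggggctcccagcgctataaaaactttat
HMGB1, chr13:30465887-30466186, minus strand: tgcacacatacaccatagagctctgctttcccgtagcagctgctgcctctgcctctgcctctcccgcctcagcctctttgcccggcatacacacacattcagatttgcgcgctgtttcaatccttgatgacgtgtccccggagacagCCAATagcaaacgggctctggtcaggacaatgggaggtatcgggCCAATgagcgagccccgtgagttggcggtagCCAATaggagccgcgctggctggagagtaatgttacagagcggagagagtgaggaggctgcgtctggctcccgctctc
HMGB3, chrX:150983085-150983384, plus strand: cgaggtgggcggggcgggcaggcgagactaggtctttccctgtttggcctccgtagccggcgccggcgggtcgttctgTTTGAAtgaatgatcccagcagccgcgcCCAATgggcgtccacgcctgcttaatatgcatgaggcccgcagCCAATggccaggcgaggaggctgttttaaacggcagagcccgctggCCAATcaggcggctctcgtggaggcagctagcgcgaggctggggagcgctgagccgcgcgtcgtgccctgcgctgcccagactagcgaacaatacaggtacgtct
HMGA1, chr6:34236623-34236922, plus strand: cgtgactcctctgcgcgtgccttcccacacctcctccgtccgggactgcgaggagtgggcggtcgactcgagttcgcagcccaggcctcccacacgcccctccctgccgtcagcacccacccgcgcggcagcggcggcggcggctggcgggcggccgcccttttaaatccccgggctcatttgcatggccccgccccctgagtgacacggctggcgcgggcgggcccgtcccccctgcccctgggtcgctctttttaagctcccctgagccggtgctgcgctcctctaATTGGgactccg
The HMGB1 and HMGB3 windows each hold 3 copies of CCAAT, and those of HMGN2 and HMGA1 hold 1 each. Over all start sites of the 8 genes, 8 of 12 windows hold CCAAT on either strand, beside 34.6% of 35116 windows of the same length. TTTGAA or TTCGAA occurs in 2 of the 12, in HMGB3 and in another start site of HMGB1, beside 16.4% of all windows. The E2F letters TTGGCGC or TTCCCGC occur in 0 of the 12, beside 9.23% of all. No 2 of these motifs overlap in the sequences shown. The matches describe letters only and show no binding.

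The RKO values are the authors' batch-adjusted signal, on the scale of normalized read counts, and summed to between 9050161 and 9195211 per library. The mouse values are FPKM, summing to between 491900.5 and 507206.3. ZNF280C averaged 101 ± 22.1 with doxycycline, against 197 ± 27.5 without it (SD, 3 libraries each), and Zfp280c was 0.133 ± 0.0751 FPKM in knock-out colon, against 2.63 ± 0.479 FPKM in wild-type colon. RKO signal was found for 5 of 7 epithelial markers, 3 of 4 smooth muscle markers and 2 of 3 leukocyte markers. It was found for 1 marker each of T cells, macrophages, fibroblasts and crypt stem cells. For goblet, B, endothelial, enteric neural and adipose cells it was found for 0 of 4 markers each. LCP1, a leukocyte marker that RKO cells also express, fell by 0.21 on the log2 scale (adjusted p = 0.0377, limma), and CDX2, an intestinal epithelial factor, rose by 0.31 (adjusted p = 0.0335, limma). These calls were lost in 10 and 8 of 18 alternatives. CORO1A, the other leukocyte marker measured, stood at 0.12. Of the 5 epithelial markers measured, 3 were positive and 2 negative (median 0.03), and CDX2 alone was called. All 7 epithelial markers were detected in colon, and the defining markers of the other cell types were above 0 in all 6 colon libraries. Markers of several cell types differed between the colons, while 0 passed in limma. Adipoq was 5.76 ± 3.28 FPKM in knock-out colon, against 0.507 ± 0.610 FPKM in wild-type colon. All 3 tested adipocyte markers had groups that did not overlap, beside 16.9% of all genes tested. Of 4 goblet markers 2 did, Tff3 (log2 fold change -1.05) and Zg16 (-0.89), while the other 2 were positive. The 3 tested crypt stem cell markers were negative, with Ascl2 (-0.72) apart. All 4 T cell markers were positive (median 0.68) and all 4 B cell markers negative (-0.76), with overlapping groups. The part of cell types in the HMG levels was not tested. In bulk tissue, fewer cells of a type and less RNA per cell cannot be told apart.

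In RKO cells, HMGB2 had the lowest treated level relative to untreated cells, at 72.6%, and HMGN2 the next, at 84.3%. The means of the other 8 genes lay between 89.5% for HMGB1 and 108% for HMGA1. Log2 fold changes, of doxycycline-treated over untreated cells on the log2(signal + 1) scale, were negative for 9 of the 10, with a median of -0.11, beside 55.1% of all genes and a median of -0.01. HMGA2 turned positive, by less than its SE, with equal sums, median centring and quantile normalization. By the threshold used for all genes, an adjusted p under 0.05 in limma, 2 of the 10 were called, beside 1.14% of all genes: 2 lower, beside 0.757%, and 0 higher, beside 0.385%. An unadjusted p under 0.05 was reached by 4 of the 10, beside 17% of all genes. The 3 treated libraries lay below all 3 untreated ones for 4 of the 10, HMGB2, HMGN2, HMGN4 and HMGN5, beside 13.3% of all genes, and above them for 0, beside 8.65% (21.9% in either direction). Since this comparison led to the choice of genes, nothing is read from these shares.

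Among the HMGB genes, HMGB2 signal was 1708, 1664 and 1734 in the treated libraries, against 2305, 2334 and 2393 in the untreated ones. All 3 treated values lay well below every untreated one, and the spread inside each group was small: 1702 ± 35.2 with doxycycline, against 2344 ± 44.6 without it (SD, 3 libraries each), or 72.6% of the untreated level, a log2 fold change of -0.46 ± 0.03 (SE). HMGB1, the alarm signal and a DNA-bending protein of most cells, stood at 904, 814 and 846 with doxycycline, against 991, 979 and 893 without. The highest treated library overlapped the lowest untreated one, and the log2 fold change was -0.16 ± 0.05. HMGB3, an X-linked paralog studied mainly in blood-forming cells, stood at 434, 451 and 436 with doxycycline and at 430, 460 and 445 without. Its groups overlapped fully, at -0.01 ± 0.04 on the log2 scale.

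Set against the mean log2 level of the other 9 HMG genes in the same library, HMGB2 stood 0.81, 0.78 and 0.83 above it in the treated libraries and 1.15, 1.18 and 1.22 above it in the untreated ones. The 3 treated differences lie below the 3 untreated ones. HMGB2 was picked from these same libraries for its lower level, so this separation follows from the choice and nothing is read from it.

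Neither HMGA gene had a treated mean below the untreated range. HMGA1, an AT-hook protein gene known to be high in colorectal tumours, stood at 49064, 52689 and 45385 with doxycycline, against 47459, 43581 and 44606 without. Doxycycline replicate 3 lay within the untreated range, and the log2 fold change was 0.12 ± 0.06, although quantile normalization, which gives the same ranks the same values, left no difference. It was one of the highest genes of the table: its mean signal ranked 9 of 15590, and 18 of 13118 genes when divided by the length of the longest annotated transcript. HMGA2, which is active in embryos and in some tumours and is repressed by let-7 microRNAs, stood at 2177, 2107 and 2129 with doxycycline, against 2177, 2139 and 2124 without. Its libraries differed little from each other in either group, with a log2 fold change of -0.01 ± 0.03.

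All 5 HMGN genes had lower means with doxycycline. HMGN2, a nucleosome-binding protein, stood at 1137, 1047 and 1116 with doxycycline, against 1354, 1291 and 1271 without. No treated library reached the untreated range, and the mean was 84.3% of the untreated one (-0.25 ± 0.04). HMGN4, a gene of primates that arose as a copy of an HMGN2 transcript, stood at 588, 625 and 648 with doxycycline, against 662, 689 and 672 without. The groups did not overlap, but the highest treated and the lowest untreated library lay close together (-0.12 ± 0.04). HMGN5, an X-linked member with a long acidic tail, stood at 144, 133 and 153 with doxycycline, against 155, 164 and 155 without. The groups were again apart by a narrow margin (-0.14 ± 0.07). HMGN1, which is encoded on chromosome 21, stood at 980, 941 and 1042 with doxycycline, against 1014, 1080 and 1086 without, with 1 treated library inside the untreated range (-0.10 ± 0.05). HMGN3 was the most variable of the 10 within groups, at 194, 228 and 188 with doxycycline and 223, 202 and 228 without (-0.10 ± 0.08).

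**Figure D1:**
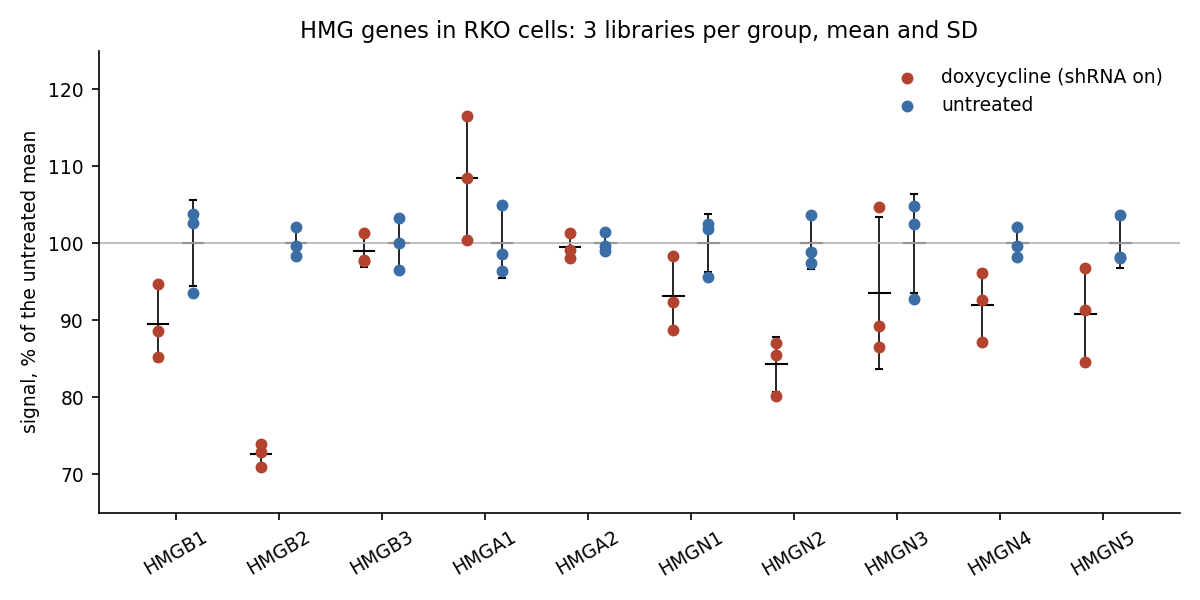
Signal of the 10 HMG genes in each RKO library, as a percentage of the untreated mean of that gene (vertical axis), with doxycycline-treated libraries left of untreated ones; bars give the mean and SD of 3 libraries. HMGB2 lies at 72.6% and HMGN2 at 84.3% of the untreated mean with no overlap, while HMGB3 and HMGA2 lie near 100%.

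Several of these genes have many near-identical copies in the genome, which share their reads. By name, GENCODE annotates 48 pseudogene copies of HMGB1, 36 of HMGN2, 31 of HMGN1 and 29 of HMGB3, but 1 of HMGB2, 1 of HMGN3, 8 of HMGA1 and 0 of HMGA2, HMGN4 and HMGN5. How the authors' counting treated such reads is not given in the sources used here, so levels of HMGB1, HMGB3, HMGN1 and HMGN2 are uncertain. The RKO table holds 10 rows of such copies, with log2 fold changes from -0.30 (HMGA1P4) to 0.14 (HMGA1P2), and 0 of them were called in limma, with 1 at an unadjusted p under 0.05. The single HMGB1 copy with a row, HMGB1P5, averaged 17.1 with doxycycline, against 19.95 without, far below HMGB1 itself.

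Transcript base composition moved with the RKO comparison over all genes. Over 13118 genes, log2 fold change and GC content of the longest transcript had a Spearman correlation of 0.44, a description across genes that share the same 6 libraries. HMG transcripts range from 33.8% GC for HMGN5 to 61.3% for HMGA1. Genes within 2 points of HMGB2, which has 49.8% GC, had a median log2 fold change of -0.01, while HMGB2 itself stood at -0.46. Genes near HMGN2 (40.5% GC) had a median of -0.06, near HMGB1 (37.9%) of -0.07 and near HMGN5 of -0.09, while those near HMGA1 had one of 0.05. With the trend of each library removed, HMGB2 stood at -0.45 ± 0.03 and HMGN2 at -0.18 ± 0.04, and HMGN2 was no longer called. HMGB1 then stood at -0.08 ± 0.05, HMGN1 at -0.03, HMGN5 at -0.04 and HMGA1 at 0.06. HMGA2 (0.07) and HMGB3 (0.03) were then positive.

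**Figure D2:**
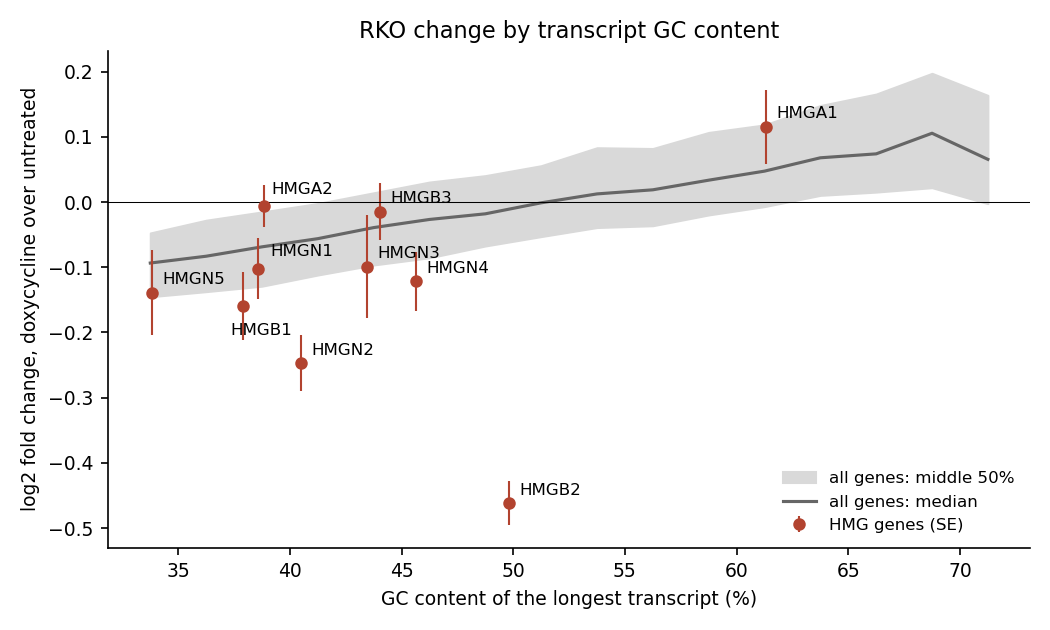
Log2 fold change of doxycycline-treated over untreated RKO cells (vertical axis) against GC content of the longest transcript in percent (horizontal axis), for the 10 HMG genes with SE bars; the line and band give the median and middle 50% of all genes in bins. HMGB2, at -0.46 and 49.8% GC, lies far below the band, and HMGN2, at -0.25 and 40.5% GC, lies below it by less.

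The call of HMGB2 was lost under 1 alternative. Doxycycline replicate 2 and untreated replicate 2 share 310 exactly equal values, and doxycycline replicate 3 and untreated replicate 1 share 526. With those pairs as blocks and the remaining libraries as the last pair, 0 HMG genes and 0 genes of the whole table were called by limma, while 1670 genes had an unadjusted p under 0.05. The log2 fold change of HMGB2 stayed at -0.46 ± 0.04, as it must for any gene, since each block holds 1 treated and 1 untreated library. Over all genes, deviations from the group means correlated at -0.53, -0.34 and -0.28 within those pairs. Batch adjustment can itself make paired libraries deviate in opposite directions, so these correlations cannot decide whether the libraries were pairs. HMGB2 alone of the HMG genes was called in each of the 6 fits that left out 1 library, where 0 to 9 genes of the table were called higher and 1 to 15 lower. HMGN2 was called in 0 of those 6. HMGB2 was chosen as the most stable lower gene, so its calls in these fits restate the choice.

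Other proteins with an HMG box were listed apart from the family. Of 14 measured genes for other HMG-box proteins, 1 fell and 0 rose in RKO cells, beside 0.757% and 0.385% of all genes. Of the 14, 11 were negative, beside 55.1% (median -0.09), and 5 had an unadjusted p under 0.05, beside 17%. SSRP1, a subunit of the histone chaperone FACT, fell by 0.21 on the log2 scale, at 4111, 3953 and 4159 signal with doxycycline and 4719, 4818 and 4591 without (adjusted p = 0.0335, limma). That call was lost in 9 of 18 alternatives, among them median centring, the replicate block and each fit without 1 library. PBRM1, a subunit of a SWI/SNF remodeller, stood at -0.18 ± 0.05 and did not pass (adjusted p = 0.0935, limma). Of 8 HMG-box transcription factors listed as sequence-specific, limma called 0, beside 1.14% of all genes. Unadjusted p-values were under 0.05 for 3, beside 17%, and 2 of the 8 were negative, beside 55.1% (median 0.04). SOX9, a crypt factor, stood at 0.38 ± 0.10, TCF7 at 0.15 ± 0.05 and HBP1, a repressor, at -0.15 ± 0.04.

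HMGN proteins compete with linker histones, of whose 7 listed genes 3 were measured. Of these 3, 2 fell, beside 0.757% of all genes, and 1 did not pass (median -0.32). The 2 calls were both lost with the replicate block, with the block of libraries sharing equal values and in 5 of the 6 fits without 1 library; without doxycycline replicate 2, 1 was left. H1F0 stood at 2235, 2366 and 2193 signal with doxycycline, against 2737, 2824 and 2917 without (-0.32 ± 0.04, adjusted p = 0.0161, limma). HIST1H1C stood at 143, 151 and 148 with doxycycline, against 225, 192 and 189 without (-0.45 ± 0.07, adjusted p = 0.0335, limma). Poly(A) selection, which the labels give, leaves out most replication-dependent histone transcripts, so HIST1H1C levels cover only polyadenylated RNA. H1FX stood at -0.10 ± 0.04 without passing.

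Of 6 genes listed around the SET complex, in which HMGB2 is found, 1 fell, beside 0.757% of all genes. Of the 6, 5 were negative, beside 55.1% (median -0.10). ANP32B, an acidic histone chaperone, stood at 4019, 3741 and 3908 with doxycycline, against 4644, 4619 and 4336 without (-0.22 ± 0.04, adjusted p = 0.0411, limma). That call was lost in 10 of 18 alternatives, among them median centring, removal of the GC trend, the replicate block and each fit without 1 library. SET itself stood at -0.11 ± 0.05 and did not pass. Of 14 histone chaperones and acidic chromatin proteins, limma called 0, beside 1.14% of all genes, and 12 were negative, beside 55.1% (median -0.07). Unadjusted p-values were under 0.05 for 2, beside 17%. These were SUPT16H, the partner of SSRP1 in FACT, at -0.12 ± 0.03 and DEK at -0.15 ± 0.05. Of 5 measured regulators of the let-7 axis and the 1 measured gene of HMGB1 reception, MYD88, limma called 0, beside 1.14% of all genes. Unadjusted p-values were under 0.05 for 0, beside 17%.

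Of 16 proliferation markers, 4 fell, beside 0.757% of all genes, and 12 did not pass. All 16 log2 fold changes were negative, beside 55.1% (median -0.16), and 15 had an unadjusted p under 0.05, beside 17%. The number called was 0 with the replicate block and 0 or 1 in each fit without 1 library. TPX2, a spindle factor, stood at -0.25 ± 0.03 (adjusted p = 0.0152, limma), CCNA2, cyclin A2, at -0.25 (0.0301), TYMS, thymidylate synthase, at -0.24 (0.0345) and BIRC5, survivin, at -0.21 (0.0459). Their summed signal was 26817, 26188 and 27963 with doxycycline and 30872, 30295 and 29591 without, with no overlap. HMGB2, at -0.46, lay below each of the 16, which ranged from -0.25 to -0.06. Since HMGB2 was picked for its lower level in this comparison, nothing is read from that order. The part of the proliferation markers in the HMGB2 result was not tested.

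**Figure D3:**
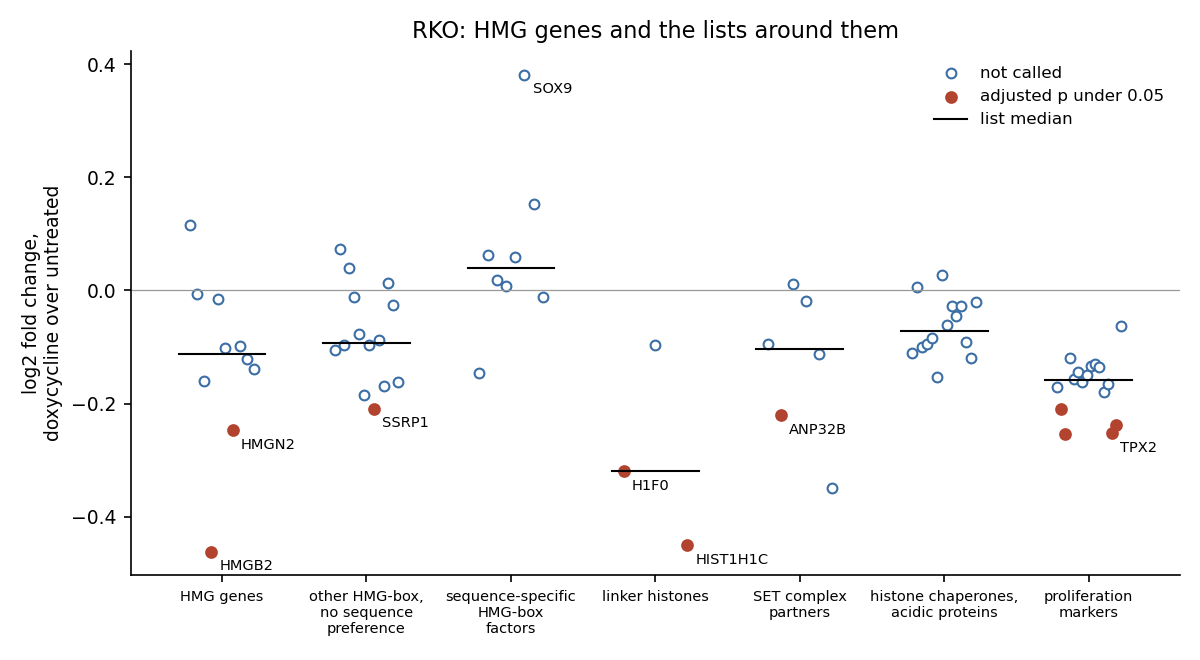
Log2 fold change of doxycycline-treated over untreated RKO cells (vertical axis) for each measured gene of 7 lists (horizontal axis); filled points passed an adjusted p under 0.05 over all genes, and lines give list medians. HMGB2 (-0.46), which was picked for its lower level in this comparison, and HIST1H1C (-0.45) lie lowest.

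The RKO genes whose log2 values ran most like those of HMGB2 were MZT1, AC004797.1, ADAM9, a transcript with only a clone-based name, and NAMPTL. After each gene was centred on its own mean over the 6 libraries, they differed from HMGB2 by a root mean square of 0.04, 0.05, 0.06, 0.06 and 0.06. The median over all genes was 0.24. Within the family HMGN2 was nearest, at 0.12, and HMGA1 farthest, at 0.30.

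In mouse colon, no difference in HMG transcript levels between genotypes was larger than the spread of the libraries. Of the 9 genes, limma called 0, beside 0% of the 11366 genes tested, and unadjusted p-values were under 0.05 for 0, beside 12.5%. The groups overlapped for all 9, while they were apart for 16.9% of all genes, 7.13% higher and 9.79% lower in knock-out colon. Log2 fold changes of knock-out over wild-type colon, on the log2(FPKM + 1) scale, were positive for 7 and negative for 2, Hmgb3 and Hmgn2, of which Hmgn2 turned positive with equal sums, median centring and quantile normalization, beside 55.4% negative among all genes. The split depended on a score of position along the colon: with it as a covariate, 6 of the 7 positive values turned negative, from -0.29 (Hmga1) to -0.074 (Hmgn5), and Hmgn3 stood at 0.01. Without that covariate, the median of the 9 was 0.06, beside -0.02 over all genes.

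For Hmgb2 (Entrez gene 97165), FPKM values were 35.26, 26.16 and 36.47 in knock-out colon, against 29.12, 35.69 and 20.01 in wild-type colon. Knock-out replicates 1 and 2 lay inside the wild-type range, and wild-type replicate 3 was the lowest of all. The mean was 32.6 ± 5.64 in knock-out colon, against 28.3 ± 7.87 in wild-type colon (SD, n = 3 each), or 0.22 ± 0.23 on the log2 scale (adjusted p = 0.664, limma). With the position score as a covariate the value was -0.22, so the data fix no direction for Hmgb2 in knock-out colon. The difference between the systems was not tested, since they differ in species, unit and design.

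Hmgb1 stood at 110.89, 94.47 and 106.93 FPKM in knock-out colon, against 96.81, 110.84 and 91.72 in wild-type colon (0.06 ± 0.10, adjusted p = 0.800, limma), and Hmgb3 at 22.10, 16.08 and 22.18 in knock-out colon, against 19.32, 23.41 and 20.45 in wild-type colon (-0.07 ± 0.15). Hmga1 stood at 62.68, 45.79 and 61.44 in knock-out colon, against 53.19, 66.89 and 46.87 in wild-type colon (0.03 ± 0.17). Hmga2, low in most adult tissues, was between 1.4 and 2.34 FPKM (0.13 ± 0.16). In each of these genes knock-out replicate 2 was low among the knock-outs and wild-type replicate 2 was the highest wild-type library.

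Among the nucleosome-binding genes, Hmgn1 stood at 46.02, 36.32 and 47.14 FPKM in knock-out colon, against 39.83, 47.34 and 41.33 in wild-type colon (0.01 ± 0.13), and Hmgn2 at 55.10, 39.16 and 54.50 in knock-out colon, against 46.40, 60.85 and 42.58 in wild-type colon (-0.01 ± 0.18). Hmgn3 was between 1.98 and 3.63 FPKM, with the largest positive value of the 9 (0.23 ± 0.17, adjusted p = 0.567, limma). Hmgn5 stood at 41.09, 37.92 and 36.16 in knock-out colon, against 34.14, 39.75 and 29.32 in wild-type colon (0.16 ± 0.12, adjusted p = 0.566, limma). Wild-type replicate 2 lay among the knock-out values of Hmgn5.

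FPKM is per length, so levels can be ordered between genes. By mean over the 6 colon libraries the order was Hmgb1 (102 FPKM, 29.8% of the family's sum), Hmga1 (56.1), Hmgn2 (49.8), Hmgn1 (43.0), Hmgn5 (36.4), Hmgb2 (30.5), Hmgb3 (20.6), Hmgn3 (2.98) and Hmga2 (1.99). Hmgb1 exceeded Hmga1, Hmga1 exceeded Hmgn2, Hmgn2 exceeded Hmgn1, Hmgb3 exceeded Hmgn3 and Hmgn3 exceeded Hmga2 in 6 of 6 libraries. Hmgn1 exceeded Hmgn5, Hmgn5 exceeded Hmgb2 and Hmgb2 exceeded Hmgb3 in 5 of 6, so these neighbours are not separated beyond the spread of libraries. In RKO cells, dividing the signal by the longest annotated transcript gave another order, as an approximation: HMGA1 (21830 per kilobase), HMGB2 (1071), HMGN2 (804), HMGN4 (529), HMGA2 (265), HMGN1 (238), HMGN3 (209), HMGB1 (165), HMGB3 (124) and HMGN5 (70.9). The low place of HMGB1 comes with a transcript of 5485 bases and 48 annotated copies, and its level is uncertain for that reason.

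**Figure D4:**
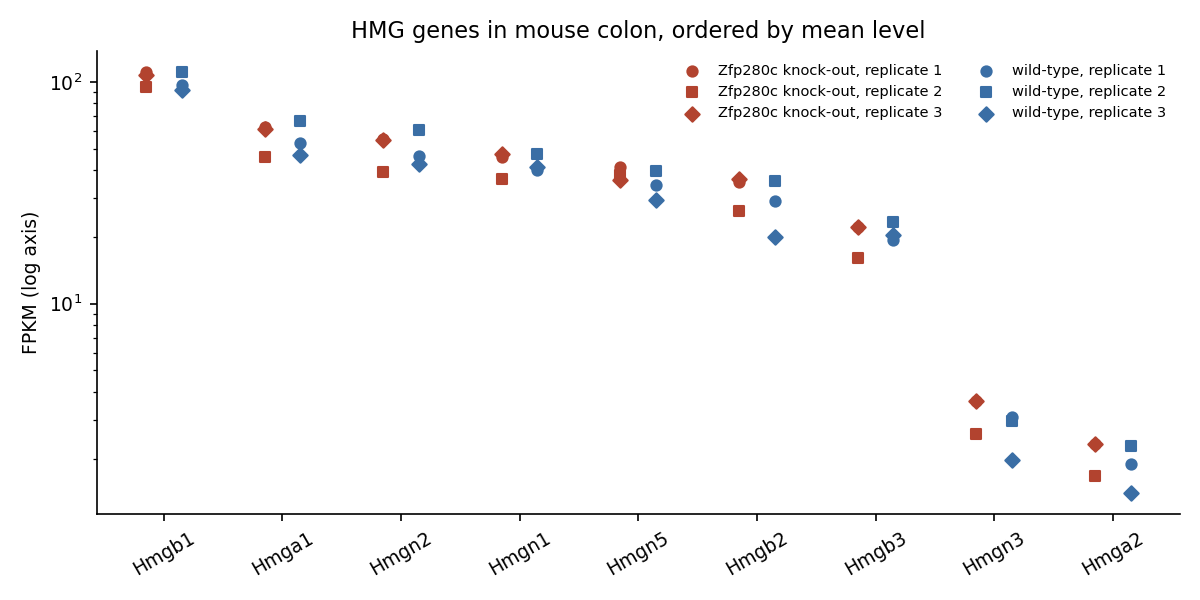
FPKM (vertical, log axis) of the 9 HMG genes in each colon library, ordered by mean level, with knock-out libraries left of wild-type ones. Knock-out and wild-type libraries overlap in all 9 genes, from Hmgb1 at 102 FPKM down to Hmga2 at 1.99.

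Across the colon libraries the HMG genes moved together, but not by genotype. After each gene was centred on its own mean, the 9 averaged 0.16, -0.18 and 0.14 in the knock-out libraries and -0.05, 0.17 and -0.24 in the wild-type ones, on the log2 scale. In knock-out replicates 1 and 3 and wild-type replicate 2, 9, 8 and 9 of the 9 genes lay above their own mean, and in each of the other 3 libraries 1 of 9 did. With each library centred on its median gene, the averages were 0.15, -0.09 and 0.09 in knock-out colon, against -0.03, 0.14 and -0.26 in wild-type colon, so the same libraries were high. The spread was widest for Hmgb2, with a coefficient of variation of 21.6% over the 6 libraries, and narrowest for Hmgb1, at 8.45%.

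Proliferation markers were high and low in the same libraries. The 15 tested markers averaged 0.29, -0.15 and 0.40 in knock-out colon, against -0.20, 0.32 and -0.67 in wild-type colon, with the sign of the HMG average in all 6. Their summed FPKM was 208.91, 161.42 and 209.44 in knock-out colon, against 162.45, 212.97 and 134.21 in wild-type colon. A score of position along the colon, from proximal minus distal HOX genes, was 2.68, 1.28 and 1.78 in knock-out colon, against -2.43, 1.88 and -4.42 in wild-type libraries. Wild-type replicate 2 was near the knock-outs by that score. Knock-out replicate 2, which was low in HMG genes, had the lowest score of the knock-outs, at 1.28. The part of proliferation and position in the HMG levels was not tested.

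**Figure D5:**
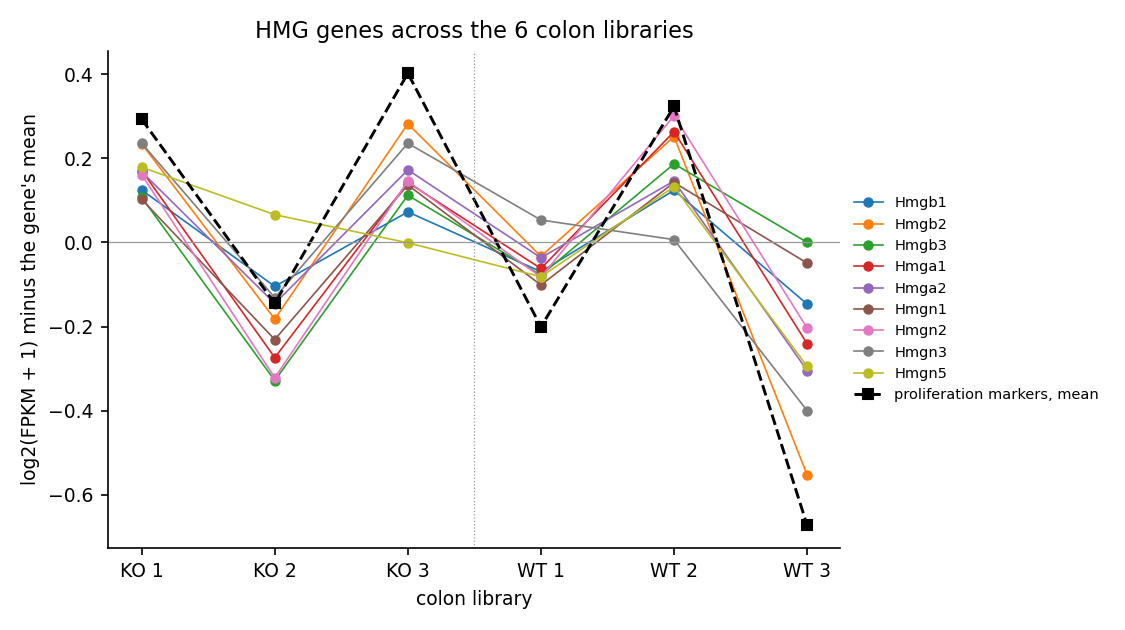
Log2(FPKM + 1) of each of the 9 HMG genes minus its mean over the libraries (vertical axis) in the 3 knock-out and 3 wild-type colon libraries (horizontal axis); the dashed line is the mean of 15 proliferation markers. Knock-out replicates 1 and 3 and wild-type replicate 2 are high, at averages of 0.16, 0.14 and 0.17, and wild-type replicate 3 is lowest at -0.24.

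The mouse genes whose profiles ran most like that of Hmgb2 were Hap1, Ckap2, Dhrs3, Hdac7 and Zwilch, at a root mean square difference of 0.06, 0.06, 0.07, 0.07 and 0.07 on the log2 scale over 6 libraries, beside a median of 0.32 over all genes. Ckap2 and Zwilch are known as spindle and kinetochore genes. Within the family Hmga2 was nearest, at 0.12.

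The lists around the HMG genes held 0 genes that passed in colon, in limma, beside 0% of all genes tested. An unadjusted p under 0.05 was reached by 12.5% of all genes. Of 15 other HMG-box genes tested, 1 had an unadjusted p under 0.05, Hmgxb3 (-0.35 ± 0.14). Of 7 sequence-specific HMG-box factors, 2 did: Tcf7l1, a repressor of Wnt targets, at 1.93, 2.01 and 1.95 FPKM in knock-out colon, against 7.37, 2.66 and 17.28 in wild-type colon (-1.48 ± 0.53), and Sox9, at 9.01, 5.14 and 10.96 in knock-out colon, against 10.48, 14.07 and 15.51 in wild-type colon (-0.65 ± 0.27). The adjusted p was 0.396 for both in limma, and the Sox9 groups overlapped. With the position score as a covariate Tcf7l1 stood at -0.27. Of 4 let-7 regulators tested, Zcchc11, which modifies the let-7 precursor, was at 7.12, 5.76 and 6.17 FPKM in knock-out colon, against 3.52, 4.89 and 2.86 in wild-type colon (0.65 ± 0.17, adjusted p = 0.396, limma), with no overlap, and at 0.29 with the position score. Hist1h1c, a linker histone gene, was at 66.57, 84.53 and 73.93 FPKM in knock-out colon, against 147.99, 73.56 and 198.01 in wild-type colon (-0.78 ± 0.34, adjusted p = 0.398, limma), with wild-type replicate 2 among the knock-outs. Of the 6 genes listed around the SET complex, 2 had groups that did not overlap, beside 16.9% of all genes. These were Nme1 (-0.42 ± 0.11) and Trex1, a DNA exonuclease (0.81 ± 0.30). Tlr2, a receptor that can sense HMGB1, was at 16.34, 12.26 and 17.39 in knock-out colon, against 4.78, 12.64 and 2.2 in wild-type colon (1.36 ± 0.49, adjusted p = 0.396, limma). Without wild-type replicate 2, 1045 of the 11344 genes tested were called higher and 816 lower. Among them were 4 of 15 proliferation markers, all higher, and still 0 HMG genes. The wild-type libraries left, with position scores of -2.43 and -4.42, then lay below all knock-outs (1.28 to 2.68). Genotype and position along the colon cannot be told apart in that fit.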

How the data were processed

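Polyadenylated RNA of RKO cells and of mouse colon was sequenced, 6 libraries each. Upstream tools named in the submitters' processing notes, with no roles, are Bowtie2, edgeR, HISAT and HTSeq, and the build is hg19. The RKO file's name says FPKM after ComBat, but the deposited values, called signal here, sum to between 9050161 and 9195211, far above the mouse FPKM sums, and increase with transcript length (Spearman 0.290 over 13118 genes). The mouse values are FPKM per the file headers. Read depth is unknown, so no counting interval is given. In each table, log2(value + 1) was fitted with limma 3.58.1 in R 4.3.3 (variance trend) over all genes with a mean of at least 1, 15590 in RKO and 11366 in colon, with Benjamini-Hochberg adjustment. The same fit had been planned for FPKM. The procedure was tested on simulated data. GC content and length came from the longest GENCODE transcript, matched for 84.1% of RKO genes, and promoters from RefSeq. The members and lists were chosen with earlier results of these data known. Named genes were all members, in each list the members called and otherwise up to 3 with the lowest p-values, and the 5 nearest profiles to HMGB2. Same-numbered libraries were not treated as pairs. Alternatives were other pseudocounts, minimum means, scalings, robust variance, blocks, a GC correction, a colon position score and removal of each library.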

Additional observations from a re-analysis of the deposited data

How the results depend on the processing

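In RKO cells the log2 fold change of HMGB2 stayed between -0.48 and -0.44 under all 18 alternatives, and it was called under 17. HMGB2 was chosen from these same libraries as the most stable lower gene, so this stability restates the choice. Neither block, of replicate numbers or of libraries that share equal values, can change a log2 fold change. HMG genes called lower numbered 2 in the fit of all libraries. They numbered 1, HMGB2, with the replicate number as a block, with the GC trend removed and in each fit without 1 library (1 to 1), and 0 with the block of libraries that share equal values. Same-numbered libraries were not taken as pairs. Their deviations correlated at 0.08, -0.53 and 0.06 in RKO and -0.45, -0.14 and 0.15 in colon. The RKO correlations cannot decide on pairing, since those values had been batch-adjusted. Over the whole RKO table that replicate block called 0 genes higher and 1 lower, against 60 and 118 without it. Equal sums, median centring and quantile normalization gave 59 and 67, 72 and 59, and 69 and 62.

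In colon 0 HMG genes were called under any of the 16 alternatives. With the position score as a covariate, signs turned for Hmga1 (-0.29), Hmga2 (-0.13), Hmgb1 (-0.11), Hmgb2 (-0.22), Hmgn1 (-0.15), Hmgn5 (-0.074) and Hist1h1c (0.024). The Hmgn2 log2 fold change in colon turned positive with equal sums (0.015), median centring (0.00537) and quantile normalization (0.00458). Without 1 library, values ran from -0.087 to 0.17 for Hmga1, -0.15 to 0.073 for Hmgb3, -0.062 to 0.12 for Hmgn1 and -0.11 to 0.15 for Hmgn2. The cause was not tested. With 3 libraries a group and unknown depth, changes of the size seen in colon cannot be resolved.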
